A study of Mus musculus with 19 samples.

Results

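Ribosome-bound mRNA of spinal cord cholinergic neurons was compared between ZT16, in the early dark period, and ZT8, in the light period, in the 3 libraries of each time, 6 of the 19 libraries of the series. ZT (Zeitgeber time) counts hours after lights on in a cycle of 12 h of light and 12 h of dark, so ZT8 and ZT16 lie 8 h apart. Every animal of both times was a WT male C57BL/6J mouse of 10 weeks that carried ChAT-Cre and RiboTag fx/+, a floxed allele that places a hemagglutinin tag on the ribosomal protein RPL22 wherever Cre recombinase has acted. Each library came from 1 spinal cord. Precipitating the tag recovers mRNA on tagged ribosomes, and Cre acts in each cell that expresses or has expressed Chat, so the libraries hold motor neurons together with other cholinergic cells. The comparison asks which mRNAs differ in their level in the precipitate between the animals' rest period and the start of their active period. With a single pooled input, a change in mRNA abundance and one in ribosome binding cannot be told apart. Of the other 13 libraries, 12 immunoprecipitates of ZT0, ZT4, ZT12 and ZT20 entered the fit for its estimate of spread, and the single pooled input served for a ratio without a test.

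In most cells the circadian clock is a transcriptional loop in which CLOCK and BMAL1 (gene Arntl) bind E-box sequences and drive the genes of their own repressors, among them the PER and CRY proteins and CIART. Nocturnal rodents are active in the dark, when motor neurons fire to move the limbs and their long axons draw on mitochondria, on filament and tubulin synthesis and on transport. Cholinergic neurons are defined by Chat, which makes acetylcholine, Slc18a3, which loads it into vesicles, and Slc5a7, which takes up choline.

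At a false discovery rate under 0.05, with the spread estimated over all 18 immunoprecipitates, 2573 of 15572 genes tested (16.5%) differed between ZT16 and ZT8. Fitted alone, the 6 libraries of these times gave 2 calls, 1 of them among the 2573. Of the 2573 genes, 1409 (9.05% of genes tested) were higher at ZT16, with a median log2 fold change of 0.67, and 1164 (7.47%) were lower, with a median of -0.57. At least 2-fold changes were few, with 306 genes higher and 114 lower. Calls were more frequent among abundant genes. In the quintile of genes most abundant in the libraries of the other times, 16.1% were higher and 18.7% lower. In the least abundant quintile the shares were 1.32% and 0.61%. Shares of the gene lists are set beside all genes tested, without matching for abundance. In a list of abundant genes, a share above that of all genes therefore cannot be read as particular to the list. Glycolytic and TCA cycle enzymes, tubulins and neurofilaments, cholinergic genes and autophagy genes were called mostly higher at ZT16, and ribosomal proteins, nuclear-encoded respiratory subunits and immediate early genes mostly lower. The 3 libraries of one time all lay above the 3 of the other in 2133 genes (13.7%) in the direction of ZT16 and in 2098 (13.5%) in the direction of ZT8. Such a separation held for 2050 of the called genes (79.7%).

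The 6 libraries held 11805198 to 19064826 counts, with 0.682% to 1.89% of them on the ribosomal RNA gene Rn18s-rs5 and 0.161% to 0.471% on mitochondrially encoded genes. The calls leaned on particular animals. Relative to the mean of the 12 libraries of the other times, the median of the genes higher at ZT16 was -0.16, -0.71 and -0.52 (log2) in replicates 1, 2 and 3 of ZT8, and 0.27, 0.36 and -0.02 in those of ZT16. The genes lower at ZT16 had medians of 0.15, 0.55 and 0.40 at ZT8, and of -0.22, -0.37 and 0.00 at ZT16. Replicate 1 of ZT8 and replicate 3 of ZT16 thus lay closest to the libraries of the other times. Replicate 2 of each time lay farthest, and without it the call count fell to 182 genes (ZT8 replicate 2 left out) or 220 (ZT16 replicate 2 left out). With both left out, no gene was called, although 2106 had an unadjusted p under 0.05. Without ZT8 replicate 3 or ZT16 replicate 1, 930 or 883 genes were called, and without ZT8 replicate 1 or ZT16 replicate 3, 3986 or 3456. Each of the 34 gene lists described below had at most 3 called members without ZT8 replicate 2 and at most 4 without ZT16 replicate 2. All 2573 called genes kept their direction in each of these single omissions. Each omission kept most of the libraries that chose the genes, so this is a description and not a test. In 138 genes the call held when any 1 of the 6 libraries was left out, 88 of them higher and 50 lower at ZT16, and the number of such omissions that kept a call is given below for single genes.

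**Figure D1:**
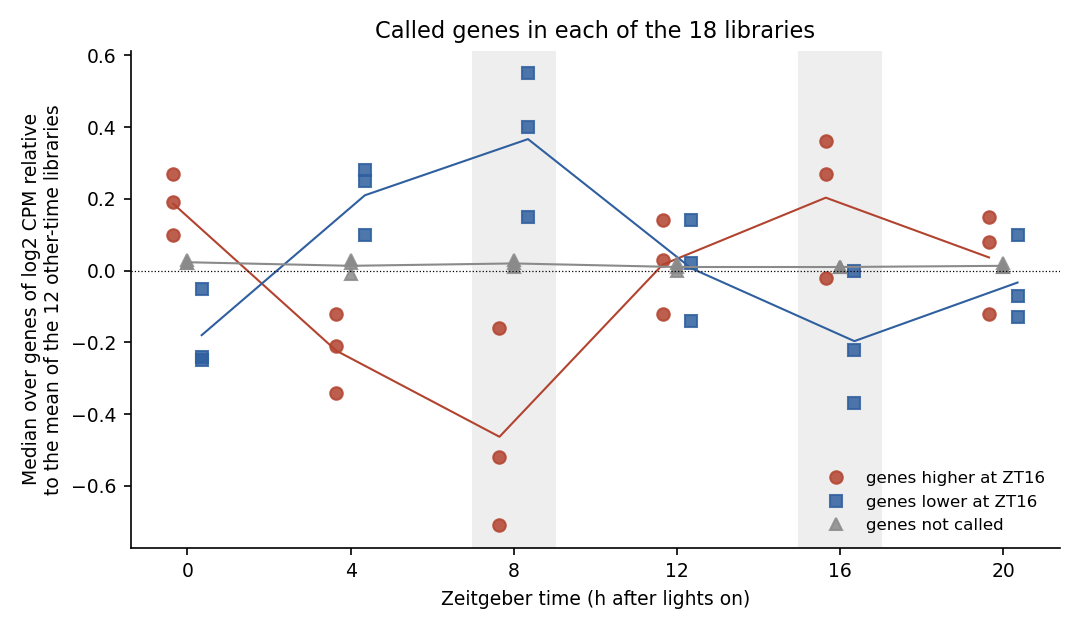
Median log2 CPM (counts divided by the TMM-scaled library size) of the genes called higher (circles), called lower (squares) and not called (triangles) between ZT16 and ZT8, in each of the 18 libraries, relative to the mean of the 12 libraries of ZT0, ZT4, ZT12 and ZT20; lines join the means of 3 libraries. Since ZT8 and ZT16 chose the genes, their points only describe the choice, and at ZT4 all 3 libraries lie below 0 for the higher genes and above 0 for the lower ones.

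The libraries of the other times, which the contrast did not use, placed the called genes along the day. Median levels of the genes higher at ZT16 were 0.18 at ZT0, -0.22 at ZT4, 0.01 at ZT12 and 0.04 at ZT20, and those of the genes lower at ZT16 were -0.18, 0.21, 0.01 and -0.03. The medians of ZT4 had the sign of ZT8, and those of ZT0 the sign of ZT16. ZT8 lay farther from these 4 times than ZT16 in 1291 of the 1409 higher genes (91.6%) and in 1022 of the 1164 lower genes (87.8%), which is a description, because both times chose the genes. Between ZT20 and ZT4, a pair with no library in common with ZT16 and ZT8, edgeR called 0 genes (1154 with an unadjusted p under 0.05; lowest adjusted p = 0.455), and DESeq2 called 5. In direction, 1320 of the 1409 higher genes (93.7%) had a higher fitted level at ZT20 than at ZT4, with a median log2 difference of 0.26, against 61 of the 1164 lower genes (5.24%), with a median of -0.24. Genes of the same libraries are not independent, and each time had 3 animals. By library, the median of the higher genes was -0.12, -0.34 and -0.21 at ZT4 and 0.15, 0.08 and -0.12 at ZT20. That of the lower genes was 0.10, 0.28 and 0.25 at ZT4 and -0.13, -0.07 and 0.10 at ZT20. ZT4 replicate 1 and ZT20 replicate 3 thus had equal medians. A test of the difference between the 2 contrasts called 0 genes with edgeR (931 with an unadjusted p under 0.05).

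The genes with the largest increase at ZT16 spanned secreted proteins, mitochondrial enzymes and kinase partners. Serpina3n, a secreted inhibitor of serine proteases, stood at 18.7, 3.78 and 8.42 CPM (counts scaled to library size) in ZT8 replicates 1, 2 and 3 and at 53.6, 65.2 and 19.9 CPM in those of ZT16 (log2 fold change 2.19 ± 0.58 SE, adjusted p = 0.025). The ranges came close to each other, since ZT16 replicate 3 was barely above ZT8 replicate 1, and only 2 of the 6 omissions kept the call. Suclg1, a subunit of the TCA cycle enzyme succinate-CoA ligase, measured 50.6, 9.92 and 15.4 CPM at ZT8 against 127, 129.6 and 76.4 CPM at ZT16 (2.15 ± 0.55, adjusted p = 0.0214, 2 of 6 omissions). Its lowest value at ZT16 was above its highest at ZT8. Slc25a5, an ADP/ATP carrier of the inner mitochondrial membrane, rose from 43.2 ± 19.4 to 154 ± 54.2 CPM (mean ± SD, n = 3 per time), and Cdc37, a co-chaperone of protein kinases, from 50.8 ± 34.7 to 177 ± 49.6 CPM. The other genes of this rank were Lgals3bp (log2 2.17), Ftsj1 (2.12), BC005537 (2.11), Dyrk3 (1.99), Srgap3 (1.90) and Isoc1 (1.83). The rank was restricted to genes with at least 10 CPM at the higher time and no overlap between libraries.

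The largest decreases included several transcripts whose counts are uncertain. 2010204K13Rik, a lncRNA on the X chromosome, fell from 5.72, 13.1 and 12.1 CPM at ZT8 to 2.65, 2.32 and 4.24 CPM at ZT16 (-1.75 ± 0.35, adjusted p = 0.00557, 6 of 6 omissions). Gp1bb fell from 125 ± 59.4 to 39.8 ± 17.3 CPM, but its annotated interval overlaps that of Septin5, which was called in the other direction (0.43), and the division of reads between overlapping genes was not tested. Idi1-ps1, Gm10774, Gm6361 and Rps13-ps1 (log2 between -1.59 and -1.31) are pseudogenes, which may share reads with their parent genes. Among protein-coding genes, Ifrd1, a transcriptional co-regulator, fell from 20.4, 29.2 and 24.6 CPM to 7.94, 10.5 and 11.4 CPM (-1.31 ± 0.21, adjusted p = 0.00251). It was called in all 6 omissions, and the lowest ZT8 library lay well above the highest ZT16 library. Snrpf, a core protein of spliceosomal particles (-1.27), Rplp2, an acidic protein of the ribosomal stalk (-1.27), and Btg2, an anti-proliferative immediate early gene (-1.41), completed the rank.

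The genes with the lowest p had tighter libraries and were called in every omission. Ftsj1, a tRNA methyltransferase, measured 3.61, 2.05 and 1.66 CPM at ZT8 against 12.6, 10.9 and 8.26 CPM at ZT16 (2.12 ± 0.30, adjusted p = 0.00233). Sqstm1, the autophagy receptor p62, measured 731, 617 and 625 CPM against 1254, 1215 and 934 CPM (0.79 ± 0.12, adjusted p = 0.00233). Por, the reductase that passes electrons to microsomal cytochromes, measured 17.2, 17.9 and 15.9 CPM against 44.8, 40.8 and 29.1 CPM (1.17 ± 0.18). In these 3 genes every ZT16 library lay above every ZT8 library. Ndufb2, Tarsl2, Sirt6, Narf and Kcnip1 (log2 between 0.98 and 2.62) were the other increases of this rank, of which Sirt6, a deacetylase, was scarce at ZT8 (0.862 ± 0.275 CPM).

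On the lower side, Ccdc85c measured 181, 238 and 215 CPM at ZT8 and 133.4, 132.9 and 133.6 CPM at ZT16 (-0.67 ± 0.10, adjusted p = 0.00233), so that its ZT16 libraries were almost equal. Prkra, a regulator of the double-stranded RNA kinase, measured 34.1, 41.2 and 36.3 CPM against 22.4, 21.7 and 20.8 CPM (-0.78 ± 0.12). Rian, an imprinted non-coding RNA that hosts small nucleolar RNAs, measured 275, 329.9 and 315 CPM against 202, 181 and 205 CPM (-0.65 ± 0.10). Zranb1, a deubiquitinase, Socs5, a suppressor of cytokine signalling, Prkce, a protein kinase C, and Taf15, an RNA-binding protein of the FET family, fell by 0.65 to 0.99 on the log2 scale. Each of these genes was called in all 6 omissions.

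**Figure D2:**
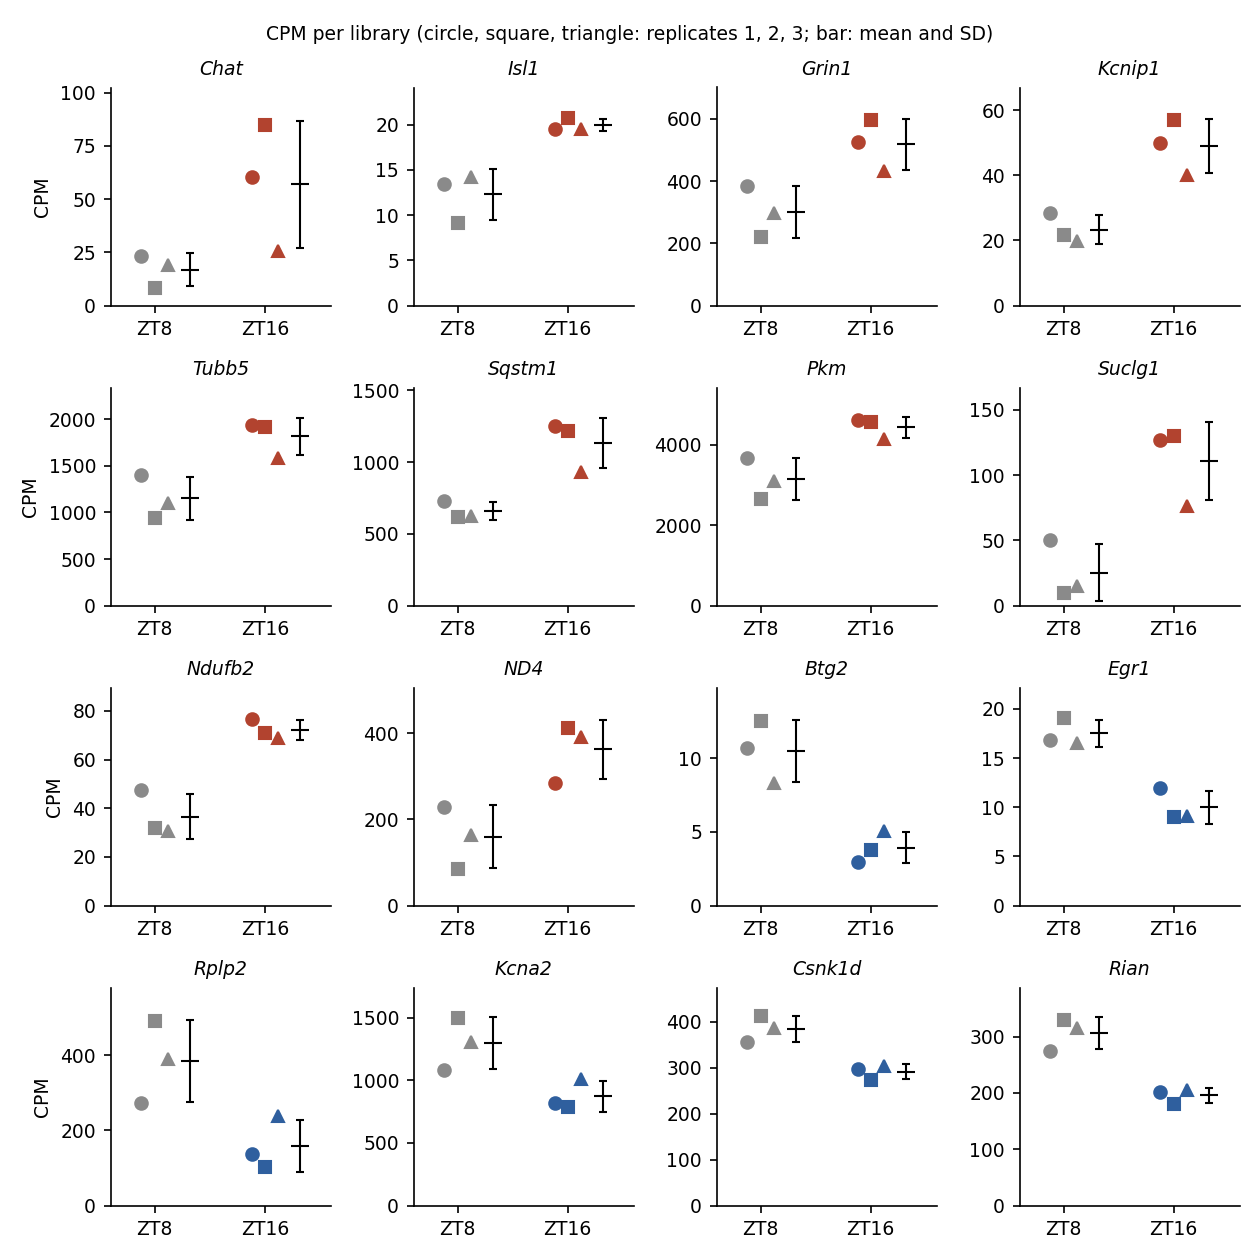
CPM in each library of ZT8 (grey) and ZT16 (red where called higher, blue where called lower) for 16 genes of different roles; circles, squares and triangles are replicates 1, 2 and 3, and the bars give mean and SD of 3 animals, with every axis starting at 0. The libraries of the 2 times do not overlap in any of these genes. All were picked from called genes, some from a rank that required no overlap, so this describes the choice. Over all called genes, 79.7% had no overlap. ZT16 replicate 3 of Chat (25.8 CPM) lies close to ZT8 replicate 1 (23.3 CPM).

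Core clock genes were called in 14.3% (activators), 30% (repressors) and 25% (outputs) of cases, against 16.5% of all genes. Of 7 activators and genes of the stabilizing loop, 1 was called, Clock itself, which went from 24.7, 33.1 and 26.6 CPM at ZT8 to 19.5, 19.2 and 23.9 CPM at ZT16 (-0.44 ± 0.15, adjusted p = 0.0487, 2 of 6 omissions). Its ZT16 replicate 3 was just below its lowest ZT8 library. Arntl, the partner of Clock, stood at 4.83, 5.29 and 6.64 CPM against 7.86, 7.54 and 7.27 CPM, without overlap (0.44 ± 0.21, adjusted p = 0.169). Nr1d1 and Nr1d2, the REV-ERB repressors of Arntl, gave 0.19 ± 0.18 (adjusted p = 0.522) and -0.41 ± 0.14 (adjusted p = 0.0503).

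Of 10 repressors and their kinases, 3 were lower at ZT16 and 0 higher. Csnk1d, a casein kinase that phosphorylates PER proteins, fell from 356, 412 and 386 CPM to 296, 273 and 304 CPM (-0.40 ± 0.09, adjusted p = 0.00866, 4 of 6 omissions). Bhlhe41 (DEC2), which competes for E-boxes, fell from 108, 171 and 122 CPM to 102, 87.1 and 99.3 CPM (-0.48 ± 0.13, adjusted p = 0.0188). Ciart (CHRONO), a repressor of CLOCK and BMAL1, fell from 9.67, 11.4 and 14.0 CPM to 7.35, 8.19 and 7.35 CPM (-0.61 ± 0.19, adjusted p = 0.0327), and this call held in 1 of the 6 omissions. Libraries of the 2 times did not overlap in these 3 genes. The period genes were not called: Per1 stood at 30.4, 25.4 and 28.0 CPM against 28.6, 31.1 and 27.2 CPM (0.05 ± 0.16), Per2 at 3.05 ± 0.0445 against 4.76 ± 1.12 CPM (0.64 ± 0.32, adjusted p = 0.169) and Per3 at 7.06 ± 1.04 against 9.81 ± 1.74 CPM (0.47 ± 0.29). Between ZT4 and ZT20 the differences of Per1, Per2 and Per3 were 0.57, 1.12 and 0.69, none of them called. Cry2 measured 129 ± 4.77 and 128 ± 4.92 CPM, a difference of -0.01 ± 0.09.

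Among the 4 output transcription factors, Nfil3 (E4BP4), which represses D-box genes, rose from 4.77, 3.07 and 3.13 CPM to 9.40, 7.86 and 5.98 CPM (1.09 ± 0.30, adjusted p = 0.0182, 2 of 6 omissions). All 3 ZT16 libraries were above the highest ZT8 library. Dbp, Tef and Hlf, its D-box counterparts, were not called (-0.06, -0.14 and -0.17). Without ZT8 replicate 2 or without ZT16 replicate 2, no gene of the 3 clock lists was called.

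Promoters are printed for the 4 genes called lower at ZT16, 2 clock repressors (Ciart and Bhlhe41) and 2 immediate early genes (Btg2 and Gadd45g), whose windows hold an element of clock or activity signalling. They were picked for holding one. The windows of the other called clock and immediate early genes that were matched (Clock, Nfil3, Jund, Nr4a1 and Klf2) held none of the 4 motifs searched, and windows of Per1, Cry1, Tef, Dusp1 and Gadd45b, which were not called, held an E-box. Among genes not called, Dusp1 and Hlf also held the cAMP response element, and Rorb and Per3 a D-box. The windows run from 250 bases before to 50 bases after the RefSeq transcript start on GRCm38.p6, on the gene's strand. Capitals mark the E-box CACGTG and, in Btg2 alone, the cAMP response element TGACGTCA; no D-box TTANGTAA or ETS element CCGGAAGT was present in these windows. Ciart (chr3:95882179-95882478, minus strand) holds 3 E-boxes, 116, 58 and 44 bases before the start, Bhlhe41 (chr6:145865371-145865670, minus strand) 1 at 153, Gadd45g (chr13:51846425-51846724, plus strand) 1 at 142, and Btg2 (chr1:134079106-134079405, minus strand) 1 cAMP response element at 166.
Ciart: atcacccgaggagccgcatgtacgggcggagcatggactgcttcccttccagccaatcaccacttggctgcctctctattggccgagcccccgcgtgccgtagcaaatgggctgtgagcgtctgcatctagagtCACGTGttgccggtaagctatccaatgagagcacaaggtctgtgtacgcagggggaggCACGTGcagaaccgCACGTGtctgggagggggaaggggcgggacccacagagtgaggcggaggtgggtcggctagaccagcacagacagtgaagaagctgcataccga
Bhlhe41: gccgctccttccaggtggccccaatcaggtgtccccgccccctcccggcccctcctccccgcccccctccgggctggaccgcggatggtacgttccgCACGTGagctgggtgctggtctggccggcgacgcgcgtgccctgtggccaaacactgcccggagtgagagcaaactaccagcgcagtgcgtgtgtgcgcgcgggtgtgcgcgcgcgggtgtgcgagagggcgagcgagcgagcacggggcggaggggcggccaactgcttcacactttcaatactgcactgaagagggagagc
Gadd45g: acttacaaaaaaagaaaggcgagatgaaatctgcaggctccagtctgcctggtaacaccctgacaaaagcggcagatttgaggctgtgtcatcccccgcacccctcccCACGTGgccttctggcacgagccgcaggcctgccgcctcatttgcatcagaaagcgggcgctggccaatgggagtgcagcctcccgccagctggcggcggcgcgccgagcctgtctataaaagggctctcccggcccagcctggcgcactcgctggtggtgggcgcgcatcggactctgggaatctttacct
Btg2: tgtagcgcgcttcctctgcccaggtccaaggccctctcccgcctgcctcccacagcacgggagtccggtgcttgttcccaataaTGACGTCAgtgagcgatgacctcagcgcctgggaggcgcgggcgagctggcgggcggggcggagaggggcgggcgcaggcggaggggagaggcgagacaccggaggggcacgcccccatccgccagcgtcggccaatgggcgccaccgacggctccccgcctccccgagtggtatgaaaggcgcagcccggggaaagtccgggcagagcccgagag

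Over whole gene groups the shares were as follows, with both strands searched and 11803 of the 15572 genes tested matched to a window. An E-box was present in 10.4% of the promoter windows of genes higher at ZT16 and 11.3% of those of genes lower at ZT16, against 9.46% for all genes tested and 7.15% of all windows. The cAMP response element stood in 2.69%, 3.81%, 2.84% and 1.79% of these, the D-box in 1.14%, 1.52%, 1.48% and 2.32%, and the ETS element in 8.13%, 10.2%, 6.88% and 3.89%. A match is a description of letters and not a bound site.

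Immediate early genes, which neuronal and other cells induce within minutes of activity or stress, had calls in 1 direction. Of 25 tested, 6 were lower at ZT16 (24% called, against 16.5% of all genes), 0 were higher and 19 were not called, and the median log2 fold change of the list was -0.34 against 0.005 for all genes. Btg2 fell from 10.7, 12.5 and 8.29 CPM to 2.99, 3.77 and 5.08 CPM (-1.41 ± 0.26, adjusted p = 0.00467). Its groups did not overlap, which the rank of largest decreases required, and all 6 omissions kept the call. Gadd45g, a stress sensor, fell from 36.2, 52.0 and 29.9 CPM to 16.1, 14.4 and 22.8 CPM (-1.15 ± 0.24), Egr1, a zinc finger factor induced by synaptic activity, from 16.9, 19.1 and 16.5 CPM to 12.0, 8.99 and 9.09 CPM (-0.81 ± 0.19), and Jund, an AP-1 subunit, from 247, 261 and 283 CPM to 185.5, 161 and 171 CPM (-0.61 ± 0.15). These 3 genes had adjusted p-values of 0.0067, 0.0087 and 0.0101 and were called in 4 of 6 omissions. Nr4a1 and Klf2 (-1.10 and -1.14), named after their values were seen, were the other calls. For these genes the libraries of the other times gave less: Btg2, Gadd45g and Egr1 differed by -0.12, -0.10 and -0.14 between ZT20 and ZT4. Without ZT8 replicate 2, or without ZT16 replicate 2, 1 gene of the list was called.

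Genes of cholinergic identity were called in 7 of 15 cases, 6 higher and 1 lower at ZT16 (46.7% called, against 16.5% of all genes). Chat, at 23.3, 8.31 and 19.0 CPM in the ZT8 libraries, reached 60.4, 84.9 and 25.8 CPM at ZT16 (1.77 ± 0.55, adjusted p = 0.0441, 2 of 6 omissions). Slc18a3, the vesicular acetylcholine transporter, went from 537, 244 and 319.5 CPM to 778.5, 833 and 513 CPM (0.95 ± 0.28, adjusted p = 0.0334). Here the times overlapped, since ZT16 replicate 3 was below ZT8 replicate 1. Slc18a3 (chr14:32462437-32464850) lies within the annotated interval of Chat (chr14:32408203-32465909), so that reads shared between them cannot be told apart. Slc5a7, the choline transporter, rose from 228, 180.4 and 179.9 CPM to 282, 343 and 229.7 CPM (0.54 ± 0.18, adjusted p = 0.0475).

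Calls that held in 4 or 5 of 6 omissions were those of Mmp9, a matrix protease of fast motor neurons (38.4 ± 8.14 to 70.8 ± 17.2 CPM), Vipr2, a receptor for vasoactive intestinal peptide (18.3 ± 3.70 to 35.1 ± 10.6 CPM), and Isl1, the LIM homeodomain factor of motor neuron fate (13.5, 9.11 and 14.3 CPM to 19.6, 20.7 and 19.5 CPM). Chodl, another marker of fast motor neurons, named after its values were seen, was lower at ZT16 (-0.30). Prph, Mnx1 and Ache were not called: Prph, a peripheral neuron filament, gave 3188 ± 158 and 2788 ± 409 CPM (-0.19 ± 0.11, adjusted p = 0.241), and Mnx1 28.7 ± 1.96 and 27.1 ± 3.12 CPM. No member of this list was called without ZT8 replicate 2, and 1 was without ZT16 replicate 2, while the list median stayed between 0.17 and 0.22 (0.20 in all libraries).

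Ionotropic receptors and channels showed scattered calls. Of 12 NMDA and AMPA receptor genes, Grin1, the obligatory NMDA subunit, rose from 386, 220.3 and 298 CPM to 525, 597 and 432.5 CPM (0.78 ± 0.17, adjusted p = 0.00788, 4 of 6 omissions), and Grina, an NMDA receptor-associated membrane protein, from 1011, 689.8 and 811.5 CPM to 1317, 1368 and 1079 CPM (0.58 ± 0.12, adjusted p = 0.0061). Both were separated between the times. No other member of the list was called (16.7% called, against 16.5% of all genes). Of 19 GABA and glycine receptor genes, 2 were higher and 1 lower (15.8% called, against 16.5% of all genes). Gabbr1, a subunit of the metabotropic GABA receptor, was among the higher ones (0.26). The lower one was Gabra2, a subunit of the ionotropic receptor (-0.53). Of 7 acetylcholine receptor genes, Chrnb2 (0.32) and Chrna7 were called higher (28.6% called, against 16.5% of all genes). With DESeq2, or with all genes of at least 10 counts in total tested, 1 gene of the list was called. Without replicate 2 of ZT8 or of ZT16, 0 were. Chrna7 stood at 0, 0.108 and 0.184 CPM against 0.769, 1.99 and 0.303 CPM, too few counts for a fold change to be read.

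Of 70 potassium channel genes, 13 were higher and 5 lower, 25.7% in all against 16.5% for all genes. Kcnip1, a cytosolic subunit of A-type channels, measured 28.3, 21.7 and 19.8 CPM against 49.8, 56.8 and 40.2 CPM (1.08 ± 0.17, adjusted p = 0.00245), Kcnc1 (Kv3.1), a fast-spiking channel, 84.3 ± 12.0 against 133 ± 22.0 CPM (0.66 ± 0.13), and Kcns3, a silent subunit, 3.93 ± 1.35 against 10.5 ± 1.71 CPM (1.42 ± 0.28). These 3 were called in all 6 omissions. Kcna2 (Kv1.2), a channel beside the nodes of myelinated axons, went the other way, from 1081, 1496 and 1305 CPM to 818, 787 and 1011 CPM (-0.57 ± 0.12, adjusted p = 0.0064). Of 24 sodium and calcium channel genes, 6 were higher and 1 lower (29.2% called, against 16.5% of all genes). Cacna2d3, Cacnb3 and Scn9a were among the higher ones (0.38 to 0.86). The lower one was Scn8a (Nav1.6), the main sodium channel of mature nodes (1068 ± 62.9 to 835 ± 7.44 CPM, -0.36 ± 0.08, adjusted p = 0.00701, 5 of 6 omissions).

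Neurofilament and tubulin genes build the cytoskeleton of the axon. Of 17 tested, 9 were called (52.9%, against 16.5% of all genes), every one higher at ZT16, and 8 were not, with a list median of 0.36. Tubb5 rose from 1405, 945 and 1101 CPM to 1940, 1920 and 1582 CPM (0.66 ± 0.13, adjusted p = 0.00528, 6 of 6 omissions). The lowest ZT16 library of Tubb5 was above the highest ZT8 library. Tubb3, the neuronal beta-tubulin, rose from 3554 ± 253 to 4650 ± 340 CPM, Tubb4a from 985 ± 270 to 1606 ± 218 CPM, and Tubg1, the gamma-tubulin of nucleation, from 62.5 ± 15.1 to 99.5 ± 14.1 CPM. Without replicate 2 of ZT8 or of ZT16, 1 member was called, and the list medians were 0.31 and 0.35. Tubulin genes share long stretches of sequence, and the division of reads among them was not tested.

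Of 22 microtubule-associated proteins, 6 were higher and 6 lower (54.5% called, against 16.5% of all genes). Map6, a stabilizer of neuronal microtubules, rose from 221 ± 43.6 to 381 ± 83.8 CPM (0.78 ± 0.15), whereas Camsap1, Mapre1 and Clasp2, which act at microtubule ends, fell by 0.38 to 0.45 on the log2 scale. Of 55 kinesin and dynein genes, 2 were higher and 7 lower, 16.4% in all and so close to the 16.5% of all genes. Kif5a, the kinesin-1 heavy chain of neurons, rose from 698 ± 97.2 to 980 ± 127 CPM (0.49 ± 0.11, adjusted p = 0.00762), and its paralog Kif5c fell from 1946 ± 389 to 1416 ± 140 CPM (-0.46 ± 0.12). The dynein light chain Dynll2 (-0.53) and light intermediate chain Dync1li2 (-0.56) also fell. Of 36 synaptic vesicle and exocytosis genes, 9 were higher and 4 lower (36.1% called, against 16.5% of all genes). In the quintile of genes most abundant at the other times, the shares were 16.1% higher and 18.7% lower. Sv2a and Unc13b (0.86 and 1.20) were among the higher ones, and Rab3c and Syt4 (-0.44 and -0.41) among the lower. Of 27 scaffold genes, 2 were higher and 1 lower, 11.1% against 16.5% of all genes. Sptan1, the alpha-spectrin of the membrane skeleton, rose from 491, 263 and 341 CPM to 770.2, 938.5 and 528.5 CPM (1.03 ± 0.24), and Dlg2, a postsynaptic scaffold, rose too (0.48).

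Central carbon metabolism had the highest share of calls of the 34 gene lists. Of 31 glycolysis and TCA cycle genes, 18 were higher and 2 lower, 64.5% in all against 16.5%. Pkm, the last enzyme of glycolysis, measured 3672, 2645 and 3107 CPM against 4608, 4551 and 4130 CPM (0.50 ± 0.10, adjusted p = 0.00539, 6 of 6 omissions). Its 2 groups were separate, and ZT8 replicate 1 lay nearest to ZT16. Eno2, the neuronal enolase, rose from 1242 ± 223 to 1891 ± 258 CPM (0.61 ± 0.12), Tpi1 from 789.5 ± 115 to 1072 ± 87.5 CPM (0.44 ± 0.10) and Idh3g, a subunit of isocitrate dehydrogenase, from 90.5 ± 22.5 to 143 ± 23.2 CPM (0.66 ± 0.14). The 2 lower members were Dlst and Sucla2 (-0.37 and -0.34), both of the TCA cycle and both named after their values were seen. In the libraries of ZT20 and ZT4 the list median was 0.19. Without replicate 2 of ZT8 or of ZT16, 3 members were called, all higher, and the medians were 0.33 and 0.39 (0.41 in all libraries).

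**Figure D3:**
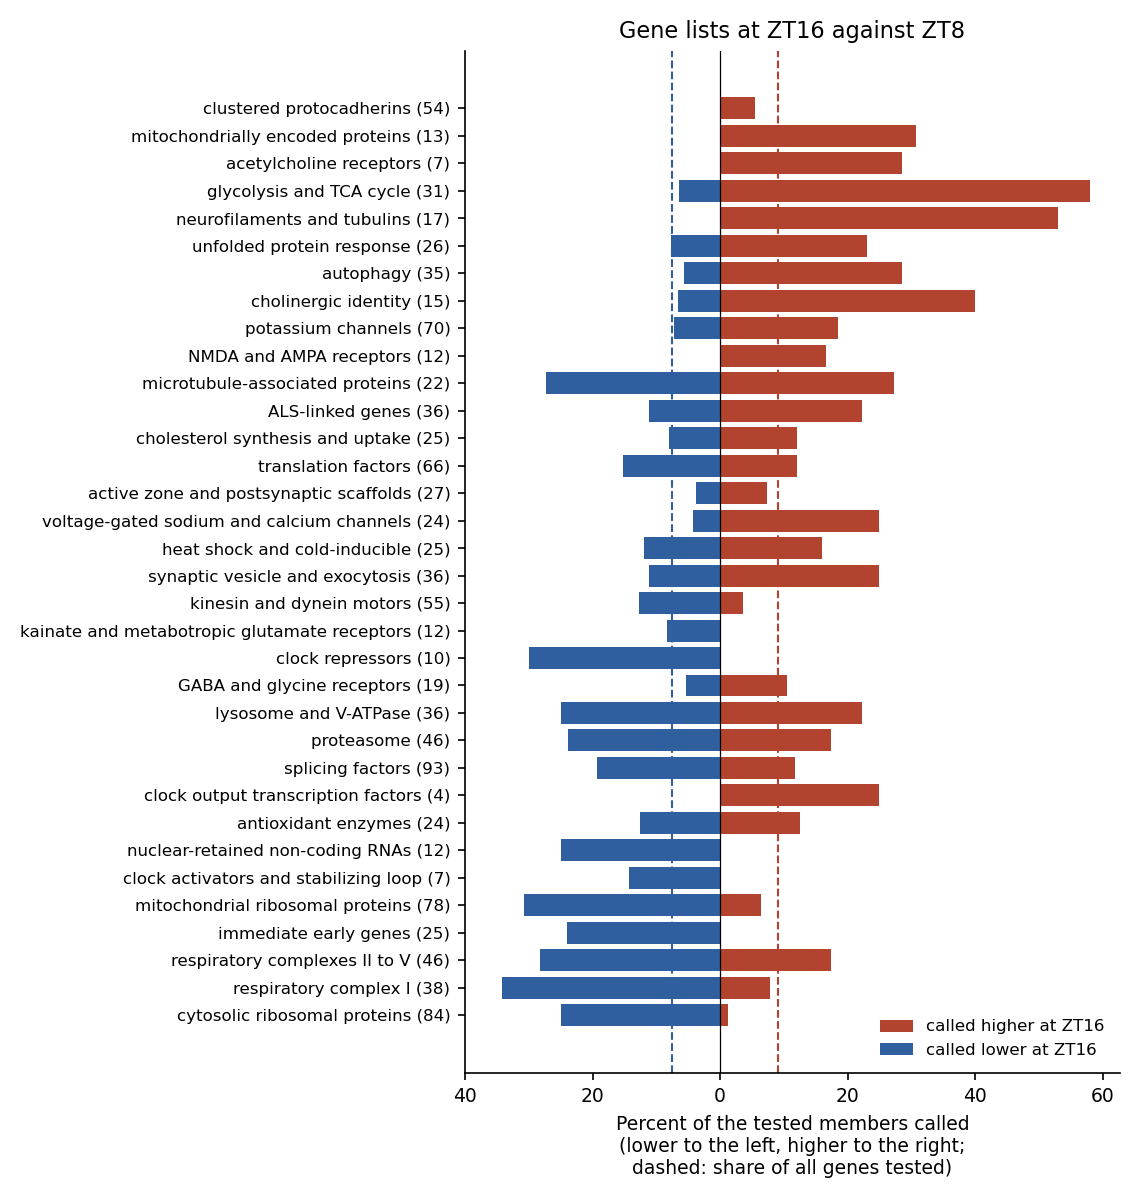
Percent of the tested members of each of the 34 gene lists called higher at ZT16 (red, to the right) and lower at ZT16 (blue, to the left), ordered by the list's median fold change, with the number tested in parentheses. Dashed lines give the shares over all genes, 9.05% and 7.47%; glycolysis and TCA cycle genes reach farthest right, and complex I genes farthest left.

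Nuclear-encoded respiratory subunits were called in both directions, more often lower. Of 38 complex I genes, 13 were lower and 3 higher (42.1% called, median -0.50), and of 46 genes of complexes II to V, 13 were lower and 8 higher (45.7% called, median -0.42), against 7.47% lower and 9.05% higher over all genes. Ndufb10 fell from 292, 491 and 423 CPM to 193, 171.5 and 300.2 CPM (-0.86 ± 0.22, adjusted p = 0.0191), with ZT16 replicate 3 above ZT8 replicate 1. Ndufb2, an accessory subunit, measured 47.4, 31.8 and 30.7 CPM against 76.8, 71.0 and 69.0 CPM (0.98 ± 0.15, adjusted p = 0.00233), and Ndufa10 and Ndufv1 rose by 0.68 and 0.40. Of the ATP synthase, Atp5a1 and Atp5c1, the alpha and gamma subunits of the catalytic head, rose (0.43 and 0.51), as did Uqcrc2, a core protein of complex III (0.44). Other subunits of the same complexes were lower, among them, named after their values were seen, Atp5g2 and Atp5g3 of the ATP synthase membrane ring (-0.52 and -0.74) and Cox5a of complex IV (-1.01). Without replicate 2 of ZT8 or of ZT16 no member of these 2 lists was called lower. The medians, from mostly the same libraries, were -0.41 and -0.37 (complex I) and -0.31 in both omissions (complexes II to V).

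Mitochondrially encoded mRNAs had calls on the higher side. Of 13 tested, 4 were higher and 0 lower (30.8% called, against 16.5% of all genes, median 0.60). ND4, a complex I subunit, measured 230.0, 85.1 and 164.5 CPM against 285, 411 and 392 CPM (1.18 ± 0.30, adjusted p = 0.0209), ND5 19.7 ± 7.17 against 50.1 ± 7.49 CPM (1.36 ± 0.31), and ND2 and CYTB gave 1.29 and 1.10. All 3 ZT16 libraries were above the ZT8 libraries in each of these genes. Mitochondrial mRNAs are translated on mitochondrial ribosomes, which RiboTag does not tag, and ND4 stood at a log2 ratio of -4.08 to the input (mean of the 12 libraries of the other times). Summed over the list, the level was 1654 to 3087 CPM at ZT8 and 2957 to 4671 CPM at ZT16, and the part of untagged RNA in this difference was not tested. Without replicate 2 of ZT8 or of ZT16 no member was called, and the medians were 0.48 and 0.58.

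Of 84 cytosolic ribosomal protein genes, 21 were lower and 1 higher (26.2% called, against 16.5% of all genes), and the list median of -0.51 was the lowest of the 34 lists. In the quintile of genes most abundant at the other times, 16.1% were higher and 18.7% lower. Rpl22 measured 93.4, 139.6 and 118 CPM against 77.1, 61.7 and 83.3 CPM (-0.66 ± 0.14, adjusted p = 0.00696, 4 of 6 omissions), and it is the gene that the RiboTag allele modifies. Rpl32, Rpsa and Rpl27a fell by 0.51 to 0.68 on the log2 scale, each with ZT16 replicate 3 inside the range of ZT8. Summed over the list, the level was 18900 to 25110 CPM in the ZT8 libraries and 13280, 14660 and 21120 CPM in the ZT16 libraries, the last being replicate 3. Without replicate 2 of either time no member was called, and the medians were -0.38 and -0.34. With all genes of at least 10 counts in total tested, 7 members were called lower and 0 higher, and DESeq2 called 40 lower and 2 higher. Many of these genes have near-identical pseudogenes, and the division of reads among copies was not tested.

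Mitochondrial ribosomal proteins gave 24 lower and 5 higher of 78 (37.2% called, against 16.5% of all genes, median -0.28), but 0 without ZT8 replicate 2, and 1 lower and 2 higher without ZT16 replicate 2. They had Mrpl15 (86.5 ± 15.6 to 59.0 ± 4.76 CPM) and Mrpl36 among the lower ones and Mrpl3 (14.5 ± 1.93 to 30.1 ± 9.45 CPM) and Mrps5 among the higher. Of 66 translation factors, 8 were higher and 10 lower (27.3% called, against 16.5% of all genes). The helicases Eif4a1 and Eif4a2, whose similar sequences make the division of reads uncertain, were called in opposite directions: Eif4a1 rose from 89.2, 60.1 and 65.7 CPM to 138, 142 and 99.5 CPM (0.82 ± 0.16), and Eif4a2 fell from 943, 1479 and 1088 CPM to 695, 676 and 832 CPM (-0.67 ± 0.13). Eif3f and Eif3l, subunits of the initiation factor that binds the small ribosomal subunit, rose (0.73 and 0.62). Of 93 splicing factors, 11 were higher and 18 lower (31.2% called, against 16.5% of all genes). Prpf19, a ubiquitin ligase of the spliceosome, rose from 319.7, 202.5 and 214 CPM to 517, 529 and 386 CPM (0.96 ± 0.16, adjusted p = 0.00457), and Snrnp200, a spliceosomal helicase, rose too (0.81). Srsf5, an SR protein, fell from 86.4, 119.5 and 134.5 CPM to 61.4, 65.3 and 82.4 CPM (-0.70 ± 0.14), and so did Hnrnpa0 (-0.51). Prpf19 and Srsf5 were called in all 6 omissions.

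Of 35 autophagy genes, 10 were higher and 2 lower (34.3% called, against 16.5% of all genes, median 0.23). Beside Sqstm1, Nbr1, a related cargo receptor, rose from 84.1, 75.8 and 71.6 CPM to 118, 133 and 96.7 CPM (0.59 ± 0.13, adjusted p = 0.00701), Map1lc3b, the LC3 protein of autophagosomes, from 185 ± 43.9 to 275 ± 39.5 CPM, and Atg13, of the initiating kinase complex, from 64.9 ± 14.4 to 94.0 ± 12.9 CPM. In every one of these genes the 2 times were separate. Without replicate 2 of ZT8, or without that of ZT16, Sqstm1 was the only member of the list called. Of 46 proteasome genes, 8 were higher and 11 lower (41.3% called, against 16.5% of all genes). Psmc2, Psmd14 and Psmb7 (0.59, 0.94 and 0.57) were called higher in all 6 omissions. Of 36 lysosomal and V-ATPase genes, 8 were higher and 9 lower (47.2% called, against 16.5% of all genes). The proteases Ctsa and Ctsf rose (0.76 and 0.58), and the proton pump subunits Atp6v1b2 and Atp6v1c1 fell (-0.40 and -0.43).

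Of 26 genes of the unfolded protein response, 6 were higher and 2 lower (30.8% called, against 16.5% of all genes). Sdf2l1, a chaperone partner of the endoplasmic reticulum, rose from 6.81, 4.69 and 4.79 CPM to 16.0, 18.4 and 14.6 CPM (1.59 ± 0.26, adjusted p = 0.00305), and Chac1, a glutathione-degrading enzyme, from 13.7 ± 5.25 to 29.4 ± 4.97 CPM (1.11 ± 0.22). Both were called in all 6 omissions, while Atf4, the transcription factor of this response, fell from 318 ± 36.4 to 191 ± 47.0 CPM (-0.73 ± 0.17). Of 25 heat shock and cold-inducible genes, 4 were higher and 3 lower (28% called, against 16.5% of all genes). Of the higher ones, Hspa8 (3743 ± 369 to 5235 ± 642 CPM) and Hspb8 (182 ± 5.15 to 240.2 ± 13.1 CPM) had the lowest p. Of 25 cholesterol genes, 3 were higher and 2 lower (20% called, against 16.5% of all genes). Tm7sf2 and Nsdhl, late enzymes of the pathway, rose (1.54 and 1.09), and Stard4 and Cyp51 fell (-0.80 and -0.46). Antioxidant enzymes gave 3 higher and 3 lower of 24 (25% called, against 16.5% of all genes). Prdx3, Gclm and Cat were higher, and Gpx1 was among the lower ones.

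Of 36 genes linked to amyotrophic lateral sclerosis, which kills motor neurons, 8 were higher and 4 lower, 33.3% in all against 16.5%. The most abundant quintile of genes had 16.1% higher and 18.7% lower, and the list was not matched for abundance. Taf15 fell from 73.6, 112.8 and 92.8 CPM to 42.2, 42.0 and 56.9 CPM (-0.99 ± 0.17, adjusted p = 0.00444), and Vapb, a membrane contact protein of the endoplasmic reticulum, from 395, 490.1 and 463 CPM to 357, 323 and 350.0 CPM (-0.39 ± 0.09, adjusted p = 0.0093). Sqstm1 and Kif5a, described above, led the higher members. Of 12 non-coding RNAs tested, Rian, Pvt1 and Gas5 were lower and 0 higher (25% called, against 16.5% of all genes). The plots label this list nuclear-retained, which was not tested for its members. Of 54 clustered protocadherin genes, 3 were called (5.56%, against 16.5% of all genes), all higher (Pcdhb11, Pcdhb8 and Pcdhb9). The first 2 were at 0 in all ZT8 libraries and at most 1.24 CPM at ZT16, so no fold change is given.

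**Figure D4:**
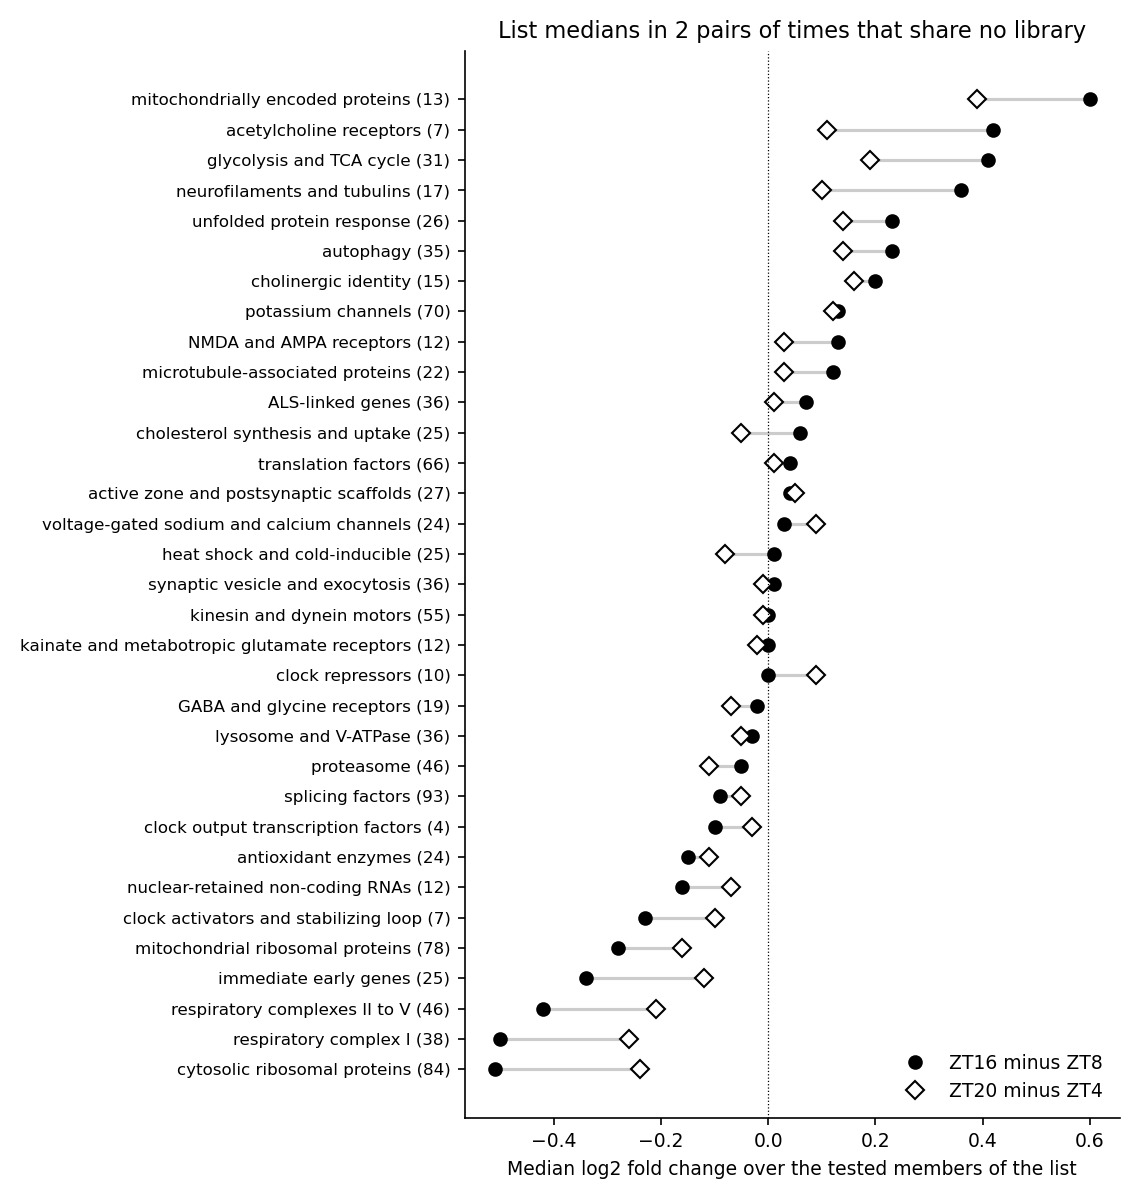
Median log2 fold change over the tested members of each gene list for ZT16 minus ZT8 (filled circles) and for ZT20 minus ZT4 (open diamonds), ordered as in the plot of called shares. The clustered protocadherins, many of them at 0, are left out; in the lists with the largest medians, such as cytosolic ribosomal proteins (-0.51 and -0.24) and glycolysis and TCA cycle (0.41 and 0.19), the diamond lies on the same side of 0 and nearer to it.

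Outside the measure that chose them, the called genes shared several features. Genes lower at ZT16 had shorter transcripts (median 2438 nt) than genes higher at ZT16 (3174 nt) and all genes tested (3070 nt), and a transcript GC content of 49.6% against 52.8% and 50.4%. In the shortest quintile of genes (66 to 1659 nt) 147 were higher and 391 lower at ZT16. Genes lower at ZT16 also had, as a set, a higher ratio of immunoprecipitate to input. Their median log2 ratio to the input over the 12 libraries of the other times was 0.84, with 82.1% above 0, whereas it was 0.03 (51.5%) for the higher genes and -0.01 (49.8%) for all genes. Among the quintile of genes with the highest ratio, 17.1% were lower and 6.81% higher at ZT16, and in the lowest quintile 1.35% and 5.87%. Abundance differed as well, with medians of 64.9 CPM (lower), 40.3 CPM (higher) and 13.8 CPM (all genes). Correcting each library for transcript length and GC content gave a median log2 fold change over all genes tested of -0.07, against 0.005 without it, and turned the split of calls from 1409 higher and 1164 lower into 1190 higher and 1927 lower (38.2% higher in place of 54.8%). Under that correction 33 ribosomal protein genes were called lower and 5 higher, 19 and 4 of complex I, 2 and 15 of glycolysis and the TCA cycle, and 1 and 7 of the neurofilaments and tubulins. Whether length, GC content or the yield of the precipitation contributed to the differences was not tested further.

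**Figure D5:**
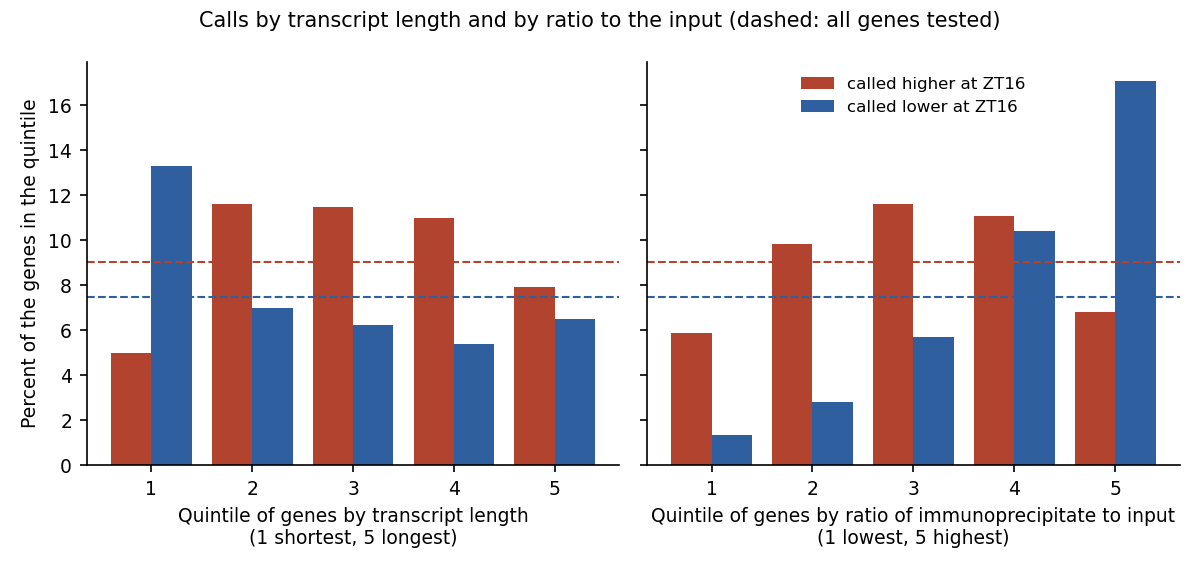
Percent of genes called higher (red) and lower (blue) at ZT16 in quintiles of all genes by transcript length (left) and by ratio of immunoprecipitate to input in the 12 libraries of the other times (right); dashed lines give the shares over all genes. Genes called lower gather among the shortest transcripts (13.3% of that quintile) and the highest ratios (17.1%).

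The libraries had the marks of the intended cells at both times. Summed over 7 cholinergic neuron markers, levels were 4230 to 4685 CPM at ZT8 and 4623 to 5027 CPM at ZT16, most of it from Prph. The sum hides single markers, since 4 of the 7 were called higher and 0 lower (57.1%, against 16.5% of all genes, median 0.59). The median log2 ratio of these markers to the input was 2.29, with Prph and Mnx1, which were not called, at 4.66 and 4.16. Median ratios to the input were below 0 on the log2 scale for all 10 lists of other cell types, although Foxj1, an ependymal factor, stood at 0.41. Of 7 oligodendrocyte markers, Mbp, the myelin basic protein, was called higher (624, 480.3 and 541 CPM to 750.1, 789 and 848 CPM, 0.54 ± 0.12, adjusted p = 0.00692), and the sum over the list was 1744 to 2002 CPM at ZT8 and 1932, 1953 and 2887 CPM at ZT16. Mbp remained at a log2 ratio of -4.08 to the input. Of 5 microglial markers, Cx3cr1 was lower (3.45 ± 1.59 to 1.21 ± 0.241 CPM), with a sum of 8.44 to 15.3 CPM at ZT8 and 8.78 to 10.4 CPM at ZT16. Of 4 oligodendrocyte precursor markers, Gpr17 was higher (0.584 ± 0.397 to 2.21 ± 0.483 CPM). In this order, these calls made up 14.3%, 20% and 25% of their lists, against 16.5% of all genes. No marker of astrocytes (6 tested), inhibitory neurons (4), excitatory neurons (3), endothelial cells (4), erythrocytes (4), fibroblasts and pericytes (6) or ependymal cells (3) was called by edgeR, with list medians between -0.40 and 0.31. Of these 30 markers, 6 had an unadjusted p under 0.05 with edgeR, as did 4798 of all 15572 genes tested. DESeq2 called 4 of the markers, and 3209 of all genes. With the oligodendrocyte score of each library as a covariate, 2793 genes were called, 2323 of them among the 2573. Fewer cells of a type and less RNA per cell cannot be told apart in such bulk libraries.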

How the data were processed

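The authors prepared stranded mRNA libraries from 100 ng of RNA, aligned them with STAR (version 2.7.5) to mm10 and deposited RSEM expected counts per gene, which need not be whole. These estimated counts, rounded here to whole numbers, cover 18 immunoprecipitates (6 times, 3 animals each) and 1 pooled input. Depth was 11805198 to 19064826 counts in the 6 libraries compared. The spread between libraries of 1 animal each (common coefficient of variation 19.2%) set the precision. In scarce genes counting error added to it.

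Genes were filtered with filterByExpr, scaled by TMM and tested with edgeR 4.0.16 (R 4.3.3, limma 3.58.1) by the robust quasi-likelihood F-test, two-sided, in a fit of the 18 immunoprecipitates. P-values were adjusted by Benjamini-Hochberg over the 15572 genes, with a threshold of 0.05. All adjusted p-values in the text are from this test. Errors of fold changes are SE, those of CPM (counts scaled to library size) are SD over 3 animals. The script was tested on simulated data. DESeq2 1.42.0, other scalings and filters, a replicate block, a correction for transcript length and GC content, and omission of libraries were alternatives.

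The gene lists and the comparison were chosen with earlier results of these data known. Named genes were the 10 largest changes in each direction with at least 10 CPM at the higher time and no overlap between libraries, the 8 lowest p in each direction, all clock genes, up to 4 called members of each other list by p, and the cell type markers. Symbols were matched to RefSeq GRCm38.p6 for 15436 tested genes, and lengths were found for 94.6%. Replicate numbers did not pair the animals: the correlations of deviations of same-numbered libraries were 0.087, -0.135 and 0.051. Some genes that this rule names are not reported here.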

Additional observations from a re-analysis of the deposited data

How the results depend on the processing

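The number of calls rested on single animals. Leaving out 1 of the 6 libraries gave 182 to 3986 calls in all, 112 to 2165 higher and 70 to 1821 lower at ZT16, the fewest without ZT8 replicate 2 and the most without ZT8 replicate 1. Without replicate 1, 2 or 3 of every time, 2322, 0 and 2244 genes were called, and with edgeR 1724 had an unadjusted p under 0.05 in the second case. Without ZT8 replicate 2 and ZT16 replicate 2, 0 genes were called (2106 with an unadjusted p under 0.05), and without ZT8 replicate 1 and ZT16 replicate 3, 4588 were (2468 higher, 2120 lower). These pairs were chosen after seeing the data. Fitting the 6 libraries alone gave 2 calls, 1 higher and 1 lower, and 1 of them was among the 2573. A false discovery rate of 0.01 gave 627 calls (365 higher, 262 lower). The length and GC correction gave 3117 calls, of which 1190 were higher and 1927 lower. Between ZT20 and ZT4, testing all genes with at least 1 count gave 281 calls, DESeq2 gave 5, and the fit without ZT8 replicate 1 and ZT16 replicate 3 gave 1. With the replicate number as a block, 2565 genes were called (1437 higher, 1128 lower), but the numbers do not pair the animals. DESeq2 size factors (2573), library totals (2459), upper quartiles (2535), at least 10 counts in total (2275), at least 1 count (3003), the DESeq2 Wald test (3209, with 2117 genes given no adjusted p), the oligodendrocyte covariate (2793) and the fit without robust estimation (2633) stayed within 1.5 times the 2573 calls. No main call changed its sign in any of these settings other than the length and GC correction, where 1 did. These settings drew on libraries that chose the calls, so the kept sign is a description and not a test.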
